A study of Rattus norvegicus with 10 samples.

Results

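The late sterol enzymes are the 9 genes that carry squalene to cholesterol, taken here in the order of the pathway as Sqle, Lss, Cyp51, Msmo1, Nsdhl, Hsd17b7, Ebp, Sc5d and Dhcr7. They were chosen by name from the pathway, with earlier results of these data known. Every probe set that the platform's gene table assigns to 1 of them alone was used. This gave 15 of 31042 probe sets, with all 9 genes measured among 14217 genes. The series compared the livers of male rats aged 13 weeks. The N-group (5 rats) ate a seasoned noodle diet for 30 days, in which instant noodle made up 30 wt% of the feed and fat gave 26% of the energy. The C-group (5 rats) ate the unseasoned counterpart. Feeding was paired between the groups, at about 60 g of feed per kg body weight each day with free access to water, and the labels name no strain. Livers of the N-group are called seasoned and those of the C-group unseasoned. The seasoned animals carried the numbers 1, 4, 7, 10 and 13 and the unseasoned ones 2, 5, 8, 11 and 14, and values per liver are given in these orders.

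Mammalian cells build cholesterol from acetyl-CoA, and squalene is the last intermediate without rings. Squalene epoxidase and lanosterol synthase close it into the sterol skeleton, a series of oxygen-dependent demethylations then trims lanosterol, and isomerase, desaturase and reductase steps finish the double bonds. The genes of the pathway are known as targets of SREBP2, a membrane-bound transcription factor that is released when sterols in the endoplasmic reticulum fall, and the liver is a main site of the synthesis. SREBP proteins bind promoters together with NF-Y, which recognises CCAAT, and Sp1, which recognises GC boxes.

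Promoters were available from RefSeq (GRCr8 build) for 8 of the 9 genes, each from 250 bases before to 50 bases after the start of the gene. The 4 printed here belong to Lss and Cyp51, which had the smallest p-values among the 9 genes, and to Msmo1 and Nsdhl, which held 3 and 5 CCAAT boxes and whose diet differences were of unlike size. Lss lies at chr20:12118181-12118480 (minus strand), Cyp51 at chr4:30991443-30991742 (plus strand), Msmo1 at chr16:29746863-29747162 (plus strand) and Nsdhl at chrX:155817110-155817409 (plus strand). Capitals mark CCAAT boxes (CCAAT, or ATTGG for a box on the other strand) and GC boxes (GGGCGG, or CCGCCC on the other strand).
Lss: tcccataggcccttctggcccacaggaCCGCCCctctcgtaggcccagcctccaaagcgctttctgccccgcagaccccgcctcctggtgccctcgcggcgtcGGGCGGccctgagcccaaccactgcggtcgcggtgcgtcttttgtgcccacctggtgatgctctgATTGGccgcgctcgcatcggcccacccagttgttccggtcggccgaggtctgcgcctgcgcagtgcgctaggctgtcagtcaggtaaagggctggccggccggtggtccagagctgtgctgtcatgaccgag
Cyp51: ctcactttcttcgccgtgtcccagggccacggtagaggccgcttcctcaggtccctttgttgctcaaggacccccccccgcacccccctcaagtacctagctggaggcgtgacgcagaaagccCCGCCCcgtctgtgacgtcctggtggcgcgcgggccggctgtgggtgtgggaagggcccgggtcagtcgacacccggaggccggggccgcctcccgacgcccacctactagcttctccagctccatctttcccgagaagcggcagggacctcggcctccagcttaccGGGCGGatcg
Msmo1: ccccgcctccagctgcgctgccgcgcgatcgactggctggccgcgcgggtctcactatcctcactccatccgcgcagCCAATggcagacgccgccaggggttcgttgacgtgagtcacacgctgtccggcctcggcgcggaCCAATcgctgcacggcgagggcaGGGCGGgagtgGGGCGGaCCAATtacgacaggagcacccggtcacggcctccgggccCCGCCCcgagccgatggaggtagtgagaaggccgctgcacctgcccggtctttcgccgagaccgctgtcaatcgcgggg
Nsdhl: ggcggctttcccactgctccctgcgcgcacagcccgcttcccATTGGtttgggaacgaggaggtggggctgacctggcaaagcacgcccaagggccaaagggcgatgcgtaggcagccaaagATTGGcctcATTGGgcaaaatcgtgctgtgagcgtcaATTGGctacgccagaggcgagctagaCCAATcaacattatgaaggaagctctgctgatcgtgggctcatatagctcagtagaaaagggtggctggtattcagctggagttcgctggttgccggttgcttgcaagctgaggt

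A CCAAT box stood in 6 of the 8 promoters (Lss, Msmo1, Nsdhl, Hsd17b7, Ebp and Sc5d), against 37.5% of all 33469 promoters of this length. Nsdhl held 5 of them, Msmo1 and Hsd17b7 held 3 each, and the windows of Cyp51 and Dhcr7 held none. A GC box stood in 7 of the 8 (all but Nsdhl), against 33.1% of all promoters. In Dhcr7 the 2 GC boxes overlap. The sterol regulatory element was searched as TCACNCCAC on both strands and was in 0 of the 8 windows and in 1.12% of all promoters. Its core, searched as CACCCCAC, was in that of Ebp alone, against 2.70% of all. The E-box CACGTG was in that of Sc5d alone, against 6.42%. These counts describe letters within the windows, were not tested, and show no binding.

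All values are the authors' deposited log2 signals, 1 per probe set and liver, and a difference is the seasoned minus the unseasoned mean. Most of the table hardly varied: 2613 genes had an SD over 0.01 log2 units across the 10 livers and are called varying, and the other 11604 are called near-constant. All 9 late sterol enzymes were varying genes. Of the liver's own genes, the hepatocyte markers had mean levels of 12.98 to 13.08 in seasoned and 12.95 to 13.08 in unseasoned livers. The extraction text of the labels speaks of brain, and the brain markers had mean levels of 6.23 to 6.33 and 6.23 to 6.28 in the same groups, under the median of 6.48 over all probe sets. In whole tissue, fewer cells of a type and less RNA per cell cannot be told apart. By the sample codes, read as an array row and position, every seasoned liver lay in row A and every unseasoned one in row B. Array row and seasoning cannot be told apart.

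All 9 late sterol enzymes had a higher mean in seasoned livers, and 0 of them passed the test over all genes. Their log2 differences ran from 0.08 for Sc5d to 0.73 for Sqle, which was dim in unseasoned livers, with a median of 0.48. The median over all genes was 0.00, and over the varying genes, of which 57.3% had a difference above 0, it was 0.02. limma called 0% of all 14217 genes at an adjusted p under 0.05 in either direction, and the smallest adjusted p among the 9 was 0.681. At an unadjusted p under 0.05 there were 6 of the 9 (Sqle, Lss, Cyp51, Nsdhl, Hsd17b7 and Dhcr7), all higher, against 2.95% of all genes that were higher at this level. Because the list was chosen with earlier results of these data known, such contrasts with all genes are descriptions and no test. With Welch's statistic, adjusted over all genes, the count was also 0 of 9. Exact permutation could call no gene after this adjustment, since its smallest possible p is 0.00794 and 594 genes had an exact p under 0.05, too few for that p to pass over 14217 genes. When only the varying genes were fitted, 0.115% were called as higher, the late sterol enzymes again gave 0 calls with a smallest adjusted p of 0.118, and 6 of 9 had an unadjusted p under 0.05, against 6.77% of the varying genes. The differences therefore stand as sizes with their errors, and no single enzyme was shown to differ at the threshold used.

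**Figure D1:**
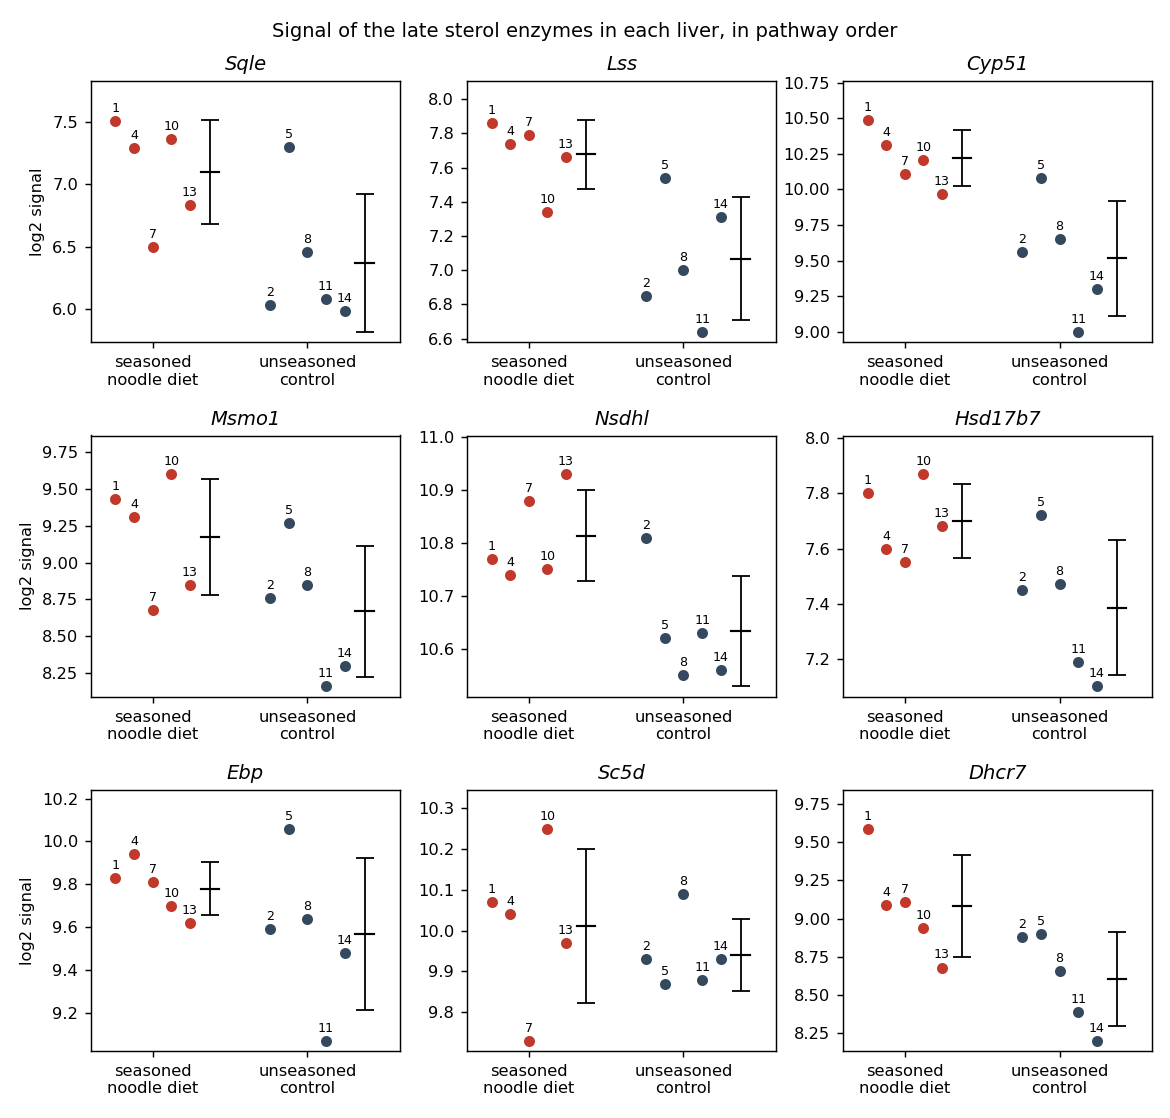
Log2 signal (y axes, a scale for each gene) of the 9 late sterol enzymes in each seasoned (red, left) and unseasoned (blue, right) liver, in pathway order, with animal numbers beside the points. The bar and whiskers beside each group are its mean and SD over 5 livers. In 7 of the 9 panels animal 5 is the highest unseasoned liver, and in every panel at least 1 unseasoned liver lies above the lowest seasoned one.

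Sqle and Lss make and close the epoxide from which all sterols derive. Sqle, squalene epoxidase and a rate-limiting enzyme of this branch, had signals of 7.51, 7.29, 6.50, 7.36 and 6.83 in seasoned livers, against 6.03, 7.30, 6.46, 6.08 and 5.98 in unseasoned ones. Unseasoned animal 5 stood among the seasoned livers, and the other 4 unseasoned livers lay under the median of all probe sets (6.48), where no detection calls show whether the gene was above background. The size of the difference is therefore uncertain. As measured, the log2 difference was 0.73 ± 0.30 (SE, 5 livers per group; adjusted p = 0.999 by limma), with a 95% interval of 0.04 to 1.42. It was 0.96 without unseasoned animal 5, the largest difference of Sqle with any 1 liver left out. Lss, lanosterol synthase, had signals of 7.86, 7.74, 7.79, 7.34 and 7.66 in seasoned livers, against 6.85, 7.54, 7.0, 6.64 and 7.31 in unseasoned ones. All seasoned livers but animal 10 lay above every unseasoned liver. The mean was 1.53-fold higher (log2 difference 0.61 ± 0.18, 95% interval 0.20 to 1.02, adjusted p = 0.753 by limma). A second probe set of Lss gave a smaller difference of 0.30 ± 0.14, although the 2 probe sets followed each other closely within the diets (r = 0.98 over 10 livers).

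Cyp51 removes the methyl group by which lanosterol is first trimmed, and it showed the smallest p-value of the 9 enzymes. Its signals were 10.49, 10.31, 10.11, 10.21 and 9.97 in seasoned livers, against 9.56, 10.08, 9.65, 9.0 and 9.30 in unseasoned ones. Only unseasoned animal 5 lay above the lowest seasoned liver, animal 13. The mean was 1.62-fold higher (log2 difference 0.70 ± 0.20, 95% interval 0.25 to 1.15), with an exact two-sided permutation p of 0.0159 before adjustment and an adjusted p of 0.681 by limma. The probe set that stands for Cyp51 carries an s in its name, which the manufacturer uses for probes shared between transcripts. The further probe set of Cyp51, without that mark, differed by 0.38 ± 0.17.

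Msmo1, Nsdhl and Hsd17b7 act in turn to strip the remaining pair of methyl groups, as oxidase, decarboxylating dehydrogenase and ketoreductase. Msmo1 had signals of 9.43, 9.31, 8.68, 9.60 and 8.85 in seasoned livers, against 8.76, 9.27, 8.85, 8.16 and 8.30 in unseasoned ones. It overlapped widely, with 3 unseasoned livers above seasoned animal 7, and differed by 0.51 ± 0.26 (95% interval -0.09 to 1.10). Nsdhl had signals of 10.77, 10.74, 10.88, 10.75 and 10.93 in seasoned livers, against 10.81, 10.62, 10.55, 10.63 and 10.56 in unseasoned ones. Its spread was the smallest of the 9 genes in both diets but for the unseasoned livers of Sc5d, and only animal 2, not animal 5, reached the seasoned range. The difference of 0.18 ± 0.06 is a fold of 1.13 (95% interval 1.03 to 1.24), and the further probe set of Nsdhl gave 0.18 ± 0.13. Hsd17b7 had signals of 7.80, 7.60, 7.55, 7.87 and 7.68 in seasoned livers, against 7.45, 7.72, 7.47, 7.19 and 7.10 in unseasoned ones. Animal 5 was again the only unseasoned liver within the seasoned range. The difference was 0.31 ± 0.12, and the further probe set gave 0.41 ± 0.13.

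Ebp and Sc5d, which act next on the ring double bonds, had differences below the 0.48 of the median enzyme. Ebp, the sterol isomerase that is also known as emopamil-binding protein, had signals of 9.83, 9.94, 9.81, 9.70 and 9.62 in seasoned livers, against 9.59, 10.06, 9.64, 9.07 and 9.48 in unseasoned ones. The highest of all 10 livers was unseasoned animal 5 and the lowest unseasoned animal 11. Ebp differed by 0.21 ± 0.16, by 0.33 without animal 5 and by 0.09 without animal 11. Sc5d, the sterol desaturase, had signals of 10.07, 10.04, 9.73, 10.25 and 9.97 in seasoned livers, against 9.93, 9.87, 10.09, 9.88 and 9.93 in unseasoned ones. Both the highest and the lowest liver were seasoned (animals 10 and 7), and all 5 unseasoned livers lay between them. Its difference was 0.08 ± 0.09 (95% interval -0.13 to 0.29), and its 2 further probe sets gave 0.13 ± 0.10 and 0.14 ± 0.13. The interval of Sc5d leaves out a log2 difference as large as the 0.48 of the median enzyme.

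Dhcr7 reduces the last double bond on the way to cholesterol and competes for its substrate with the making of vitamin D in skin. It had signals of 9.59, 9.09, 9.11, 8.94 and 8.68 in seasoned livers, against 8.88, 8.90, 8.66, 8.39 and 8.20 in unseasoned ones. The seasoned livers other than animal 13 lay above every unseasoned liver. The mean was 1.39-fold higher (log2 difference 0.48 ± 0.20, 95% interval 0.03 to 0.93). Without seasoned animal 1 it differed by 0.35, and without seasoned animal 13 by 0.58.

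Over every probe set of the pathway the direction was shared. All 15 had a higher mean in seasoned livers, 0 were called over all 31042 probe sets, and 7 had an unadjusted p under 0.05, against 2.56% of all probe sets that were higher at this level. The 15 values are not independent, since 5 genes have more than 1 probe set. Where a gene had several, their values within the diets correlated at 0.39 to 0.98.

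**Figure D2:**
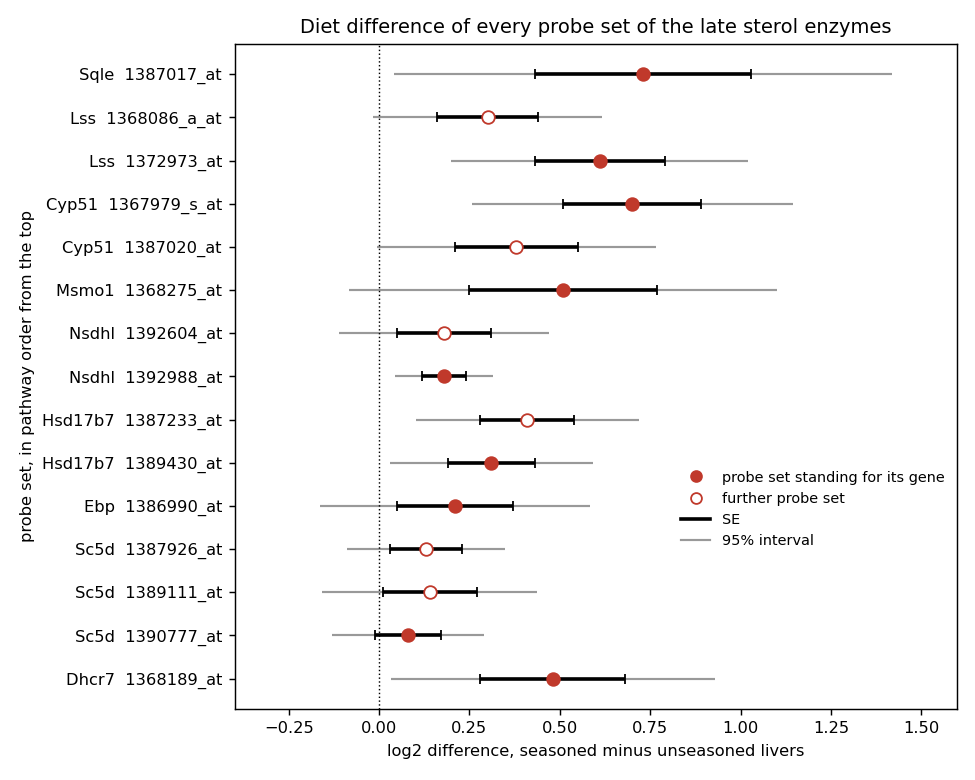
Log2 difference between seasoned and unseasoned livers (x axis) for each of the 15 probe sets (rows, in pathway order from the top), with the SE in black and the 95% interval in grey (5 livers per group). All points lie above 0, from 0.08 for the probe set that stands for Sc5d to 0.73 for Sqle, and the further probe sets of Lss and Cyp51 lie at 0.30 and 0.38.

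No late sterol enzyme separated the diets, whereas 0.549% of all genes were higher without overlap. For 6 of the 9 this rested on 1 liver. Without unseasoned animal 5, Sqle, Lss, Cyp51 and Hsd17b7 did not overlap, against 1.51% of all genes on the same 9 livers. Without seasoned animal 13 Cyp51 and Dhcr7 did not overlap (0.914% of all genes), without seasoned animal 10 Lss did not (1.59%), and without unseasoned animal 2 Nsdhl did not (0.957%). Leaving out any of the other 6 livers gave 0 of the 9, and Msmo1, Ebp and Sc5d overlapped whichever liver was left out. The median difference of the 9 enzymes lay between 0.35 (without seasoned animal 1) and 0.58 (without seasoned animal 13).

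The mean of the 9 enzymes, each set relative to its unseasoned mean, was 0.62, 0.48, 0.27, 0.48 and 0.27 in seasoned livers, against 0.01, 0.40, 0.07, -0.30 and -0.18 in unseasoned ones. In seasoned animals 1, 4, 10 and 13 all 9 enzymes were above the unseasoned mean, and in animal 7 there were 8, with Sc5d below it. In unseasoned animal 11 there were 0 of 9 and in animal 14 there was 1, Lss. Unseasoned animals 5 and 8 had 7 of 9 above that mean and animal 2 had 6. The largest such excess was 0.93 in animal 5 (Sqle) and 0.18 in animal 8 (Msmo1). No test is given for this mean.

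The overall signal of the arrays moved with several of these livers. The median of all varying probe sets was 8.27, 8.26, 8.24, 8.10 and 8.14 on the seasoned arrays, against 8.21, 8.30, 8.19, 8.07 and 8.22 on the unseasoned ones. Animal 5, with high sterol genes, had the highest of these medians, and animal 11, with low ones, the lowest, while both diets averaged 8.20. After each array was centred on this median, the late sterol mean was 0.55, 0.42, 0.22, 0.57 and 0.33 in seasoned livers, against 0.00, 0.30, 0.08, -0.18 and -0.20 in unseasoned ones. Centring left the differences of the 9 genes within 0.01 of their earlier sizes. In the fit over all genes the errors of 7 of them were narrower than before. Lss (0.61 ± 0.11, adjusted p = 0.0107 by limma) and Cyp51 (0.70 ± 0.12, adjusted p = 0.00972) then rose over all genes, where 0.352% were called as higher. In a fit of the centred varying genes alone, where 0.383% were called as higher, both had an adjusted p of 0.0565 and did not pass. Among varying genes alone, centring took the error of Sqle from 0.28 to 0.26 and that of Cyp51 from 0.18 to 0.15. The errors of Nsdhl (0.07 to 0.08) and Sc5d (0.09 to 0.11) widened there, and that of Hsd17b7 stayed at 0.12. The near-constant genes take on the offset of each array in the centred fit over all genes, and the fit of varying genes alone leaves them out.

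**Figure D3:**
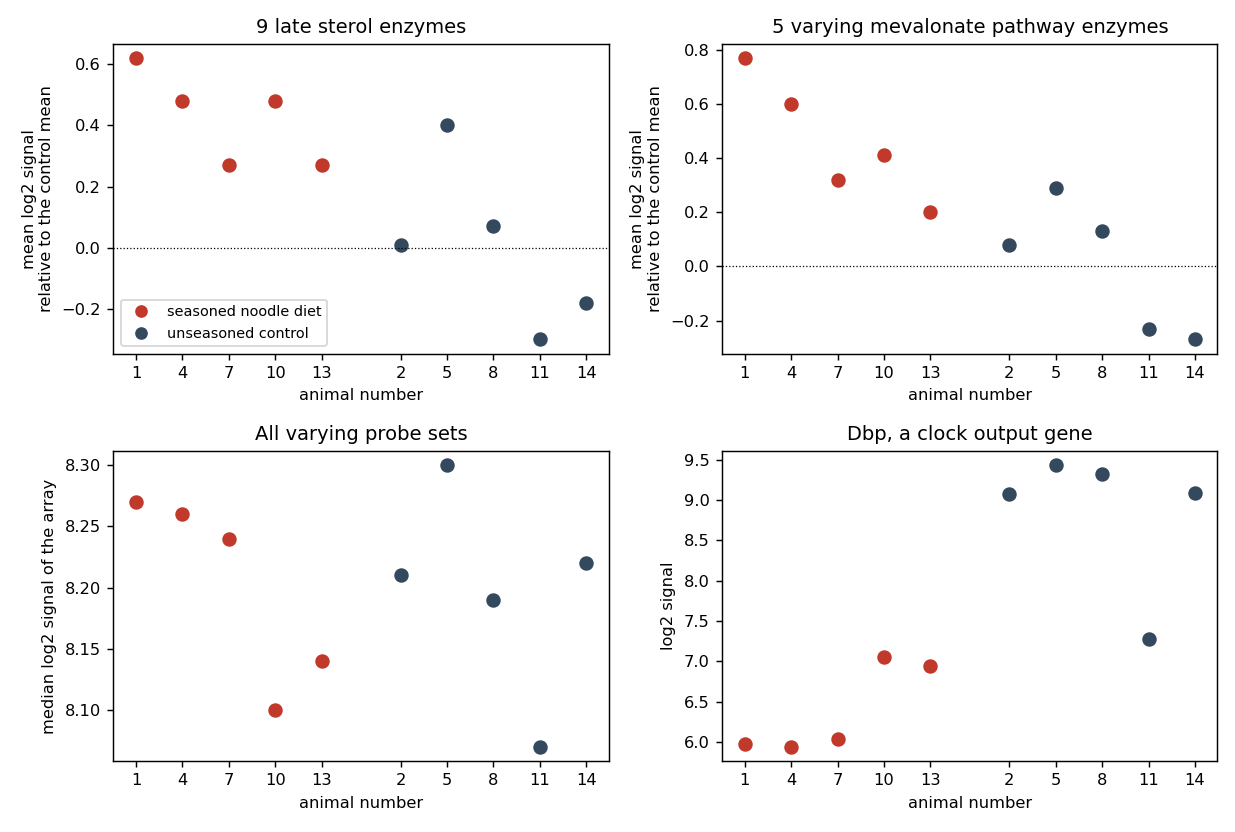
Values of each liver by animal number (x axes) for seasoned (red, left) and unseasoned (blue, right) rats. The panels give the mean of the 9 late sterol enzymes and of the 5 varying mevalonate enzymes relative to the unseasoned mean, the median of all varying probe sets on the array, and Dbp, all in log2 units. Unseasoned animal 5 is high and animal 11 low in the sterol panels and in the array medians, and animal 11 lies nearest the seasoned rats in Dbp.

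The size of the difference also varied with animal number. The livers were parted into animals 1 to 7 (3 seasoned, 2 unseasoned) and animals 8 to 14 (2 seasoned, 3 unseasoned), a split known from an earlier look at these data that the labels name as no batch. The 9 enzymes had a median difference of 0.13 in the lower-numbered set and of 0.52 in the higher-numbered one, with all 9 above 0 in both. Of the unseasoned livers, animal 5, with the highest late sterol mean (0.40), is 1 of the 2 in the lower-numbered set. Animal 11, with the lowest (-0.30), is in the higher-numbered set. The part of these livers in the gap was not tested. Msmo1 differed by 0.13 and 0.79 in the 2 sets, Hsd17b7 by 0.06 and 0.52, and Sqle by 0.43 and 0.92. Lss (0.60 and 0.52) and Dhcr7 (0.38 and 0.39) hardly changed between them. Whether the sets differ in the effect of diet was not tested. With the sets as a block, Cyp51 differed by 0.63 ± 0.17, Lss by 0.56 ± 0.17 and Dhcr7 by 0.38 ± 0.13, and 0 of the 9 were called.

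**Figure D4:**
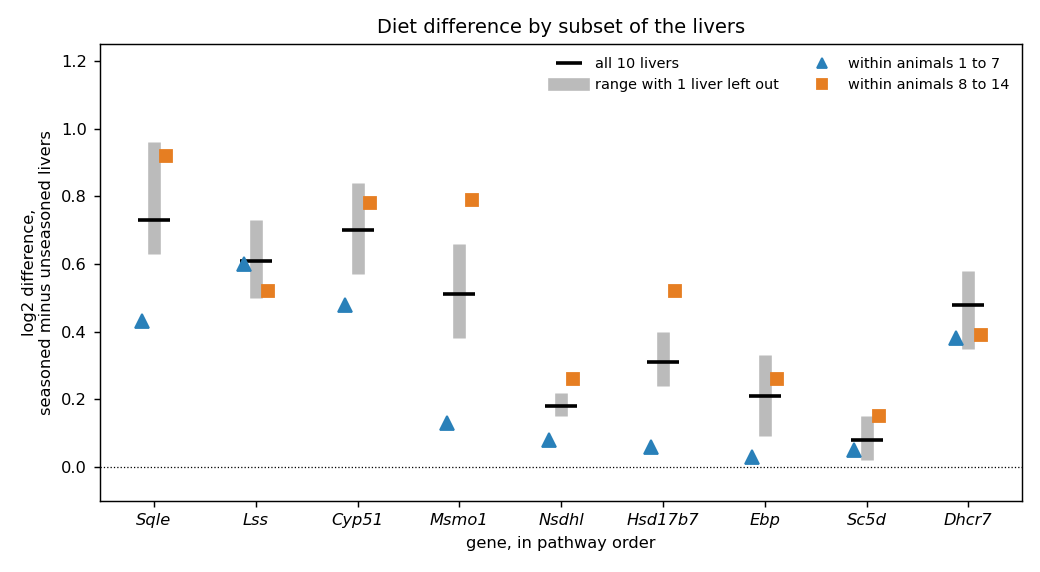
Log2 difference between seasoned and unseasoned livers (y axis) for each late sterol enzyme in pathway order (x axis), over all 10 livers (black), as the range with any 1 liver left out (grey), within animals 1 to 7 (blue triangles) and within animals 8 to 14 (orange squares). No value falls below 0, and Msmo1 and Sqle show the widest gaps between the 2 sets.

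Within the diets the enzymes did not all move together. After subtraction of each diet's mean, the 36 pairs of the 9 genes had a median Pearson r of 0.48 over 10 livers, between -0.50 and 0.93, where all pairs of varying genes had a median of 0.23. On centred arrays the medians were 0.41 and 0.01. These correlations share arrays and animals and are given as a description. Cyp51 followed the others most closely, with a median r of 0.78 to the other 8, followed by Msmo1 (0.66), Ebp (0.65), Hsd17b7 (0.63), Sqle (0.60) and Dhcr7 (0.56). Lss (0.27) and Sc5d (0.11) followed them less, and Nsdhl ran the other way at -0.19. Each gene is represented here by its probe set with the highest mean. That of Sc5d had an r of only 0.50 and 0.39 with the further probe sets of Sc5d, which had 0.95 with each other. The probe sets of Nsdhl had an r of 0.68. The values for Sc5d and Nsdhl hold for the probe sets used, and no r with the other enzymes is given for their further ones. On centred arrays Nsdhl was at -0.42 and Lss at 0.00.

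The other enzymes and helpers that act after squalene gave a mixed picture. Of 9 measured genes 0 were called by limma, with 2 higher and 1 lower at an unadjusted p under 0.05. Tm7sf2, a sterol reductase that acts right after Cyp51, differed by 0.56 ± 0.21, and Cyb5b, an outer mitochondrial cytochrome b5, by 0.14 ± 0.06. Por, which hands electrons to Sqle and Cyp51, differed the opposite way by -0.53 ± 0.21, with 7.66 ± 0.11 (SD) in seasoned and 8.19 ± 0.47 in unseasoned livers. The near-constant genes of this list included Lbr, a second enzyme of the Tm7sf2 step, and Pgrmc1, a partner of Cyp51, both with differences of 0.00. The median of the list was 0.00.

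Of the enzymes before squalene, the 5 varying ones also had higher seasoned means, and the median difference of all 8 measured was 0.30. Of 8 measured mevalonate and isoprenoid enzymes, 0 were called, 5 were varying, and the near-constant Mvk, Mvd and Ggps1 differed by 0.00. Fdps, which makes farnesyl diphosphate, differed by 0.53 ± 0.12 with no overlap between the diets. On centred arrays its adjusted p was 0.0102 over all genes and 0.0565 among varying genes. Pmvk, phosphomevalonate kinase, differed by 0.30 ± 0.10. Mvd, the decarboxylase of the pathway, was near-constant at 6.88 in both diets. The mean of the 5 varying ones was 0.77, 0.60, 0.32, 0.41 and 0.20 in seasoned livers, against 0.08, 0.29, 0.13, -0.23 and -0.27 in unseasoned ones. This mean differed by 0.46 between the diets, and the late sterol mean by 0.42. The late sterol mean minus the mevalonate mean lay between -0.15 and 0.07 in seasoned livers and between -0.07 and 0.11 in unseasoned ones.

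Insig2, an endoplasmic reticulum protein that holds back SREBP release, had the smallest p among the regulators around the pathway. Of 10 measured genes of SREBP control and sterol uptake 0 were called, with a median of 0.05. Insig2 had 11.46 ± 0.22 (SD) in seasoned and 10.94 ± 0.11 in unseasoned livers, a difference of 0.52 ± 0.11 (adjusted p = 0.481 by limma), with no overlap. On centred arrays its adjusted p was 0.00762 over all genes and 0.0524 among varying genes. Insig1, its relative, differed by 0.27 ± 0.38, with a wide error. Srebf2, which encodes SREBP2, differed by 0.18 ± 0.12, and Mbtps2, a protease that releases SREBP, was near-constant at 6.90. Genes that use or export cholesterol had a median of 0.00 over 16 measured, with 0 called and 0 at an unadjusted p under 0.05. Ch25h, Abca1 and Lcat, with the smallest p of these, were near-constant. Among 8 measured genes of regulated enzyme degradation 0 were called, and Ubxn4 had the smallest p of them, with a difference of 0.19 ± 0.06. Marchf6, a ligase known in human cells to mark squalene epoxidase for degradation, differed by -0.18 ± 0.10, and Erlin1 by -0.12 ± 0.08.

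**Figure D5:**
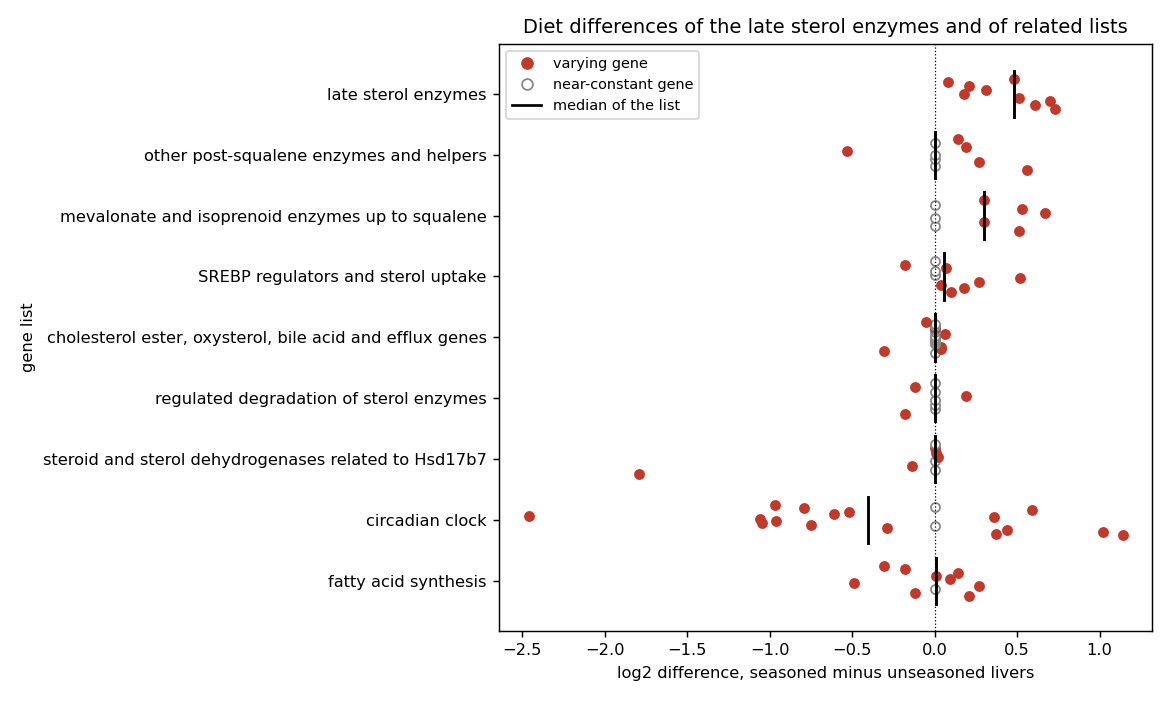
Log2 difference between seasoned and unseasoned livers (x axis) for each gene of the late sterol enzymes and of 8 further lists (rows), with the median of each list as a black bar. Filled points are varying and open points near-constant genes. The late sterol enzymes have a median of 0.48 and the mevalonate list one of 0.30, while the clock list spreads from -2.46 to 1.14. The mevalonate median includes the near-constant Mvk, Mvd and Ggps1. The mean of its 5 varying genes differed by 0.46, against 0.42 for the mean of the 9 late sterol enzymes.

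The clock genes held some of the largest diet differences in the lists compared here. Of 18 measured clock genes 5 were higher and 7 lower at an unadjusted p under 0.05, and 0 were called over all genes. On centred arrays 9 of the 18 were called, among 94 genes in all, and Dbp (adjusted p = 0.0266) and Bmal1 (0.0339) also passed among varying genes alone. Dbp, an output factor with a strong daily rhythm, had signals of 5.97, 5.94, 6.03, 7.05 and 6.94 in seasoned livers, against 9.08, 9.43, 9.32, 7.28 and 9.09 in unseasoned ones. Bmal1, the activator of the clock, had 7.72, 7.74, 7.72, 6.92 and 7.27 in seasoned livers, against 6.21, 6.24, 6.08, 6.90 and 6.23 in unseasoned ones. Clock, its partner, differed by 0.37 ± 0.07. Unseasoned animal 11, whose Dbp and Bmal1 lay nearest the seasoned livers, had the lowest late sterol mean of all 10 livers (-0.30). On centred arrays it stood at -0.18, above unseasoned animal 14 at -0.20. Without animal 11 the median difference of the 9 enzymes was 0.38 on the arrays as deposited. The part of clock time in the sterol differences was not tested, and the labels used here give no hour of sampling.

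Genes of fatty acid synthesis, which answer to the related factor SREBP1, did not share the direction. Of 10 measured, 0 were called, 0 had an unadjusted p under 0.05, and the median was 0.00. Scd, a desaturase, differed by -0.49 ± 0.24, Thrsp, a lipogenic regulator, by -0.31 ± 0.29, and Mlxipl, a glucose-responsive factor, by 0.14 ± 0.12. Their 9 varying members had a median r of -0.31 with the late sterol mean within the diets, against 0.73 for the 5 varying mevalonate enzymes and 0.43 for all 2604 other varying genes. Markers of macrophages, stellate cells, endothelium, bile duct and blood were called in 0 cases, and their median differences lay between 0.00 and 0.01. In this order, 7 of 8, 5 of 10, 2 of 8, 1 of 6 and 1 of 7 measured markers were varying. Near-constant markers thus hold most of these medians near 0.00, and the medians say little on cell make-up. Single markers differed by -0.14 (Dcn) to 0.24 (Clec4f). Within the diets the 5 varying stellate markers had a median r of -0.72 with the late sterol mean (-0.50 on centred arrays). The 3 varying hepatocyte markers had -0.46 (-0.33 centred), and the 1 varying blood marker had -0.60 (-0.59 centred). The varying macrophage markers had 0.24 (-0.14 centred), those of endothelium 0.37 (0.03 centred), and the 1 of bile duct 0.62 (0.44 centred). The part of these cell types in the sterol values was not tested. Of the hepatocyte markers, Apoa1, the main protein of HDL, differed by 0.23 ± 0.07 with no overlap, and Tat, an enzyme of tyrosine breakdown, by -0.24 ± 0.22.

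The genes most like the late sterol enzymes were sought among the other 2604 varying genes by Pearson r with the mean of the 9, each liver taken relative to its diet's mean (10 livers, a description). B4galnt1, a ganglioside synthase, came highest (r = 0.94), with Mocs1 (0.92) and Idi1 (0.92), the isomerase of the mevalonate pathway, next. Dclre1a, Card10, Nceh1, Sulf2, Ctsf, Gmps and Plekhg3 completed the 10, with r between 0.89 and 0.91. On centred arrays Dclre1a had an r of -0.21, while the other 9 stayed between 0.79 and 0.90. B4galnt1 had a difference of 0.14 ± 0.14, Mocs1 of 0.13 ± 0.13, and Nceh1, a cholesterol ester hydrolase, of -0.31 ± 0.25. Idi1 differed by 0.67 ± 0.24, close in size to Sqle and Cyp51. In total 100 varying genes had an r above 0.8.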

How the data were processed

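Liver RNA of 5 seasoned and 5 unseasoned rats was measured with 1 array each. The target was biotin-labelled cRNA from 100 ng of total RNA, per the labels' protocols. Each probe set has a deposited log2 value for every array. The sources used here do not give its summary or normalization method. The log2 scale was read from the range of 4.79 to 14.34. No detection calls or scanner signals were used, so whether dim probe sets lay above background is not known. The number of arrays, 5 per diet, limits the precision. Array pairs correlated at 0.990 to 0.998, and 0 pairs were identical.

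Of 31099 probe sets, 57 controls were left out. The platform's gene table gave 20826 probe sets 1 gene, 436 several and 9780 none. For 20758 of them the gene identifier gave a current symbol in the GRCr8 gene table. The probe set with the highest mean stood for each gene, without a filter on dim signals. limma 3.58.1 (lmFit, eBayes, two-sided, no covariate) in R 4.3.3 was fitted over all genes, and over all probe sets, with Benjamini-Hochberg adjustment over all tested. A gene counts as called below an adjusted p of 0.05. Exact permutation used 252 assignments, with a smallest possible p of 0.00794. P-values set each difference against the spread between livers of the same diet. With 1 array per liver, this spread holds the variation of rats and of arrays together. Fits were checked on simulated data.

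The members, lists, alternatives and the rule for named genes (all members, the 3 genes of each list with the smallest p, the 10 most alike) were chosen with earlier results of these data known. Lbr, Pgrmc1, Mvk, Ggps1 and Insig1 are named beyond this rule, after their values were seen. Alternatives were other probe set rules, a filter on dim probe sets, repeated quantile normalization, median centring, varying genes alone, other variance models and tests, array weights, animal-number block, array position, assumed pairs of adjacent animals, and leaving out each liver.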

Additional observations from a re-analysis of the deposited data

Results flagged for a closer look

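The 15 probe sets and the mean of the 9 enzymes gave 32 groups of 5 livers. In 1 of these a single liver stood apart by more than 0.71 of the range of its group. It was unseasoned animal 8, high for the probe set that stands for Sc5d (ratio 0.718), at 10.09 against 9.87 to 9.93 in the other unseasoned livers. Chance flags about 1 in 20 such groups. Of the further probe sets of Sc5d none was flagged, and animal 8 was at 9.89 and 9.61 on them.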

How the results depend on the processing

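Across 27 alternatives no late sterol enzyme reversed its direction. Exact permutation could make no call at this size. Calls of these enzymes appeared in 1 alternative, with arrays centred on the median of varying probe sets. There 2 of the 9 genes passed as higher (Lss at 0.61 and Cyp51 at 0.70), against 0.352% of all genes called as higher. In either direction 94 genes were called there. With centring and varying genes alone, an alternative added after seeing the data, 0 of the 9 passed, with 14 genes called in all. All genes called numbered 4 among varying genes, 1 with array weights, 2 with array position as a covariate, 12 with the animal-number block among varying genes (added after seeing the data), 3 within animals 1 to 7 and 0 to 5 with 1 liver left out (5 without unseasoned animal 11), none of them a late sterol enzyme. The median difference of the 9 was 0.13 within animals 1 to 7, 0.65 with array position as a covariate and 0.35 to 0.58 with 1 liver left out. No paired analysis was possible because the animals of the 2 diets share no number, and adjacent numbers taken as assumed pairs gave 0 calls. Another background correction was not run, since the table holds processed values.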

Other observations

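The genes most like the late sterol enzymes changed in part with the scaling of the arrays. With each array centred on the median of its varying probe sets, 7 of the 10 genes of highest r stayed among the 10, with B4galnt1 (r = 0.90), Idi1 (0.89) and Mocs1 (0.89) still highest. The median r of all other varying genes with the late sterol mean was 0.43 before and 0.08 after centring, while that of the 5 varying mevalonate enzymes was 0.73 and 0.62.

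Among 8 measured relatives of Hsd17b7 in the hydroxysteroid dehydrogenase family, Hsd17b2, which inactivates sex steroids, had 10.52 ± 0.72 (SD) in seasoned and 12.31 ± 0.46 in unseasoned livers (log2 difference -1.79 ± 0.37, adjusted p = 0.475 by limma). Hsd17b6 differed by -0.14 ± 0.16, and Hsd17b13 was near-constant at 9.60. The family was called in 0 cases over all genes, and its median difference was 0.00. On centred arrays Hsd17b2 was the 1 call of the family (adjusted p = 0.0044), and among centred varying genes its adjusted p was 0.0513.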
